A study of Mus musculus with 4 samples.

Results

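The genes described here are Trp53, Mdm2, Cdkn1a, Ccng1, Phlda3, Sesn1, Bax, Bcl2l11 and Mcl1, which are 9 of the 32286 features of the deposited count matrices. They were chosen by symbol, with no measured value in the rule, as the transcription factor p53, its main inhibitor, several of its target genes and regulators of apoptosis. Each symbol was found in all 4 matrices, and all 9 genes passed the low-count filter in every main comparison named below. In a subset of cells with a low mitochondrial share, Phlda3 did not pass it. Trp53 itself is the factor rather than a target, and Mcl1 and Bcl2l11 belong to the list as apoptosis regulators.

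The mice carried Tmem119-2A-CreERT2 and the Ai6 reporter in all groups, so that Cre made from the Tmem119 locus, a gene of microglia, marks cells with the fluorescent protein ZsGreen. Stroke was induced by tying off the right middle cerebral artery for good (pMCAO), and in sham surgery the artery was not tied. On day 3 the hemisphere of the operated side was dissociated, 4 samples of a condition were combined, and live ZsGreen-positive cells were sorted for droplet sequencing with unique molecular identifiers (UMIs). The groups were sham and stroke in each sex, with 1 pool per group, so the spread between pools of one kind was not measured and sex served as the only pairing. In every pair of values given below the female pool comes first. Ages are not given in the labels.

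The protein p53 is kept scarce by the ubiquitin ligase MDM2, which marks it for destruction. When DNA damage, replication stress or another signal frees it from MDM2, p53 binds paired copies of a short half-site near its targets and raises their transcription. Some targets halt the cell cycle, some limit growth signals, some return to p53 as brakes, and others open the mitochondrial path of apoptosis, in which the BCL2 family decides whether the outer membrane is breached. Microglia, the resident phagocytes of the brain, divide after ischaemia.

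The promoters show which of these genes hold p53 half-sites beside a listed start of transcription. In RefSeq promoters of GRCm38.p6, from 250 bases before to 50 after the start, a full p53 site was searched as 2 adjoining half-sites with at most 2 mismatches in all. It was found in 107 of 32851 promoters (0.326%), and among the 12 promoters listed for the 9 genes it was found in 2, those of Cdkn1a and Ccng1. The half-site is its own reverse complement in pattern, so both strands were read at once. The 2 full sites, each with 1 mismatch, are shown in capitals within their surroundings, 5′ to 3′ on the strand of the gene. The Cdkn1a stretch is chr17:29090859-29090978 on the plus strand, with the site beginning 51 bases before the start of that promoter. A further promoter listed for Cdkn1a, chr17:29093519-29093818, held neither a full site nor a half-site. The Ccng1 stretch is chr11:40755412-40755531 on the minus strand, with the site beginning 195 bases before the start.
Cdkn1a: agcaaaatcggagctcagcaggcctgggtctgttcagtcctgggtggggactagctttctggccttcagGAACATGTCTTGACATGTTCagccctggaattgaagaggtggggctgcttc
Ccng1: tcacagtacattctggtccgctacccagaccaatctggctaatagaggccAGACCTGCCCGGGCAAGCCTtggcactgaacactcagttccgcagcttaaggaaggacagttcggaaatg

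A single half-site with no mismatch was found in 2745 promoters (8.36%) and in 6 of the 12 promoters of these genes. Outside Cdkn1a and Ccng1 it was found for 4 genes, shown with the half-site in capitals. Their positions are chr11:69580269-69580308 on the plus strand (Trp53), chr10:117710920-117710959 on the minus strand (Mdm2), chr7:45467075-45467114 on the minus strand (Bax) and chr10:41887251-41887290 on the plus strand (Sesn1). The Sesn1 half-site lies in the listed promoter chr10:41887189-41887488, and the other promoter listed for Sesn1, chr10:41810324-41810623, held none. A match describes the letters only, and a window without one leaves sites elsewhere in the gene unseen.
Trp53: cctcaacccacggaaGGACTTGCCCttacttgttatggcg
Mdm2: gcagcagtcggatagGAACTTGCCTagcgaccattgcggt
Bax: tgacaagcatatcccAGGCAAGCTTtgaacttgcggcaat
Sesn1: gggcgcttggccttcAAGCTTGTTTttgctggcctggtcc

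The libraries differed before any gene was compared. They held 29581392 to 66072270 UMIs, and no barcode of the male sham pool had under 4198 UMIs, whereas the other pools reached down to 500 or 501. Pairs of libraries shared 4 to 11 barcodes. After quality filters, clusters were named from marker genes, and 2865 and 3997 sham and 3204 and 2994 stroke microglia-like cells had at least 3000 UMIs. Sham cells lay mostly in clusters led by Upk1b, Tsix, Btg2 or Fosb, and stroke cells mostly in clusters led by Cst7, Ifit3, Top2a or Ccl4, so the comparisons within microglia set different clusters side by side. Every cell was thinned to 3000 UMIs and its UMIs of 88 cell cycle genes were counted, none of which is among the 9. Cells with fewer than 3 were called non-cycling and cells with 3 or more cycling. A stricter class, called strongly cycling and holding cells with over 10, was added after the data were seen, because 23.8% and 27.5% of sham microglia already passed the lower limit. It held 27 and 68 sham and 749 and 623 stroke cells.

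In non-cycling microglia, 4 of the 9 genes rose after stroke, namely Cdkn1a, Phlda3, Ccng1 and Bax, and 2 fell, namely Trp53 and Sesn1. Of all 12936 genes tested, 20.4% were called higher and 18.3% lower. A call was therefore common among all genes. Levels are given as UMIs per 10,000 UMIs of the class, and log2 changes come from edgeR's quasi-likelihood test on summed counts with TMM scaling and Benjamini-Hochberg adjustment, with 1 residual degree of freedom. The scaling matters for the size of a change: with library totals in place of TMM the median log2 change of all genes moved from -0.04 to -0.35, and the split of calls moved from 2644 higher and 2365 lower to 1423 and 5863.

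Trp53 encodes p53. Its level in non-cycling microglia was 0.890 and 0.845 in the sham pools and 0.513 and 0.563 in the stroke pools. Both stroke pools lay below both sham pools. Its log2 change was -0.37 ± 0.13 (SE), with an adjusted p of 0.0141 by edgeR. The call was lost without either stroke pool (adjusted p = 0.398 and 0.179) and with DESeq2 (adjusted p = 0.153).

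Mdm2, the inhibitor of p53 and itself a target of it, was measured at 0.528 and 0.411 in sham and at 0.437 and 0.451 in stroke. The stroke pool was the lower of the pair in females and the higher in males. The log2 change of 0.25 ± 0.13 did not pass the test (edgeR adjusted p = 0.132).

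Cdkn1a encodes p21, the inhibitor of cyclin-dependent kinases through which p53 halts the cell cycle. It was at 0.158 and 0.195 UMIs per 10,000 in the sham pools and at 0.841 and 0.847 in the stroke pools. Stroke cells held 5.31 times the female sham level and 4.35 times the male sham level, and the stroke pools were nearly equal. This was a log2 change of 2.58 ± 0.14, with an adjusted p of 2.1e-70 by edgeR. The share of non-cycling microglia with a Cdkn1a UMI among 3000 was 3.71% and 3.87% in sham and 11.7% and 13.6% in stroke, at median depths of 6429 and 5411 and of 8116 and 8271 UMIs before thinning. In the neurons of the sham pools, with median depths of 5483.5 and 5698, it was 0.709% and 2.22%.

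Phlda3, which competes with the kinase AKT for membrane lipids, was near its limit of detection. It gave 7 and 9 UMIs in sham and 56 and 40 in stroke, or 0.0048 and 0.0053 per 10,000 in sham and 0.0358 and 0.0259 in stroke. Both stroke pools stood above both sham pools. The fitted log2 change was 2.89 ± 0.44, with an adjusted p of 1.2e-09 by edgeR. Only the stroke pools took Phlda3 past the low-count filter, so it was tested because of the pools where it was high.

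Ccng1, the cyclin G1 gene whose protein recruits a phosphatase to MDM2, was at 0.225 and 0.189 in sham and at 0.286 and 0.314 in stroke. The stroke pools were higher in both sexes, by less in females. It changed by 0.86 ± 0.14 on the log2 scale (edgeR adjusted p = 4.4e-08). Sesn1, a sestrin that restrains the growth kinase mTORC1, went the other way. It stood at 0.903 and 0.688 in sham and at 0.482 and 0.468 in stroke, a log2 change of -0.41 ± 0.13 (edgeR adjusted p = 0.0059). Like the Trp53 call, it was lost without either stroke pool and with DESeq2.

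Among the BCL2 family, Bax, whose protein forms pores in the mitochondrial membrane, was at 1.08 and 1.25 in sham and at 1.6 and 1.57 in stroke. Both stroke pools lay above both sham pools, and the log2 change was 0.77 ± 0.13 (edgeR adjusted p = 3.5e-08). Bcl2l11, which encodes the BH3-only killer protein BIM, was at 0.493 and 0.391 in sham and at 0.326 and 0.298 in stroke. Mcl1, a short-lived survival protein of the family that binds BIM, was at 3.28 and 3.47 in sham and at 2.76 and 2.86 in stroke. For both genes the stroke pools lay below the sham pools in UMIs per 10,000, but with TMM scaling neither passed the test, at -0.17 ± 0.14 for Bcl2l11 (edgeR adjusted p = 0.315) and 0.06 ± 0.13 for Mcl1 (edgeR adjusted p = 0.776). With library totals Bcl2l11 was called lower at -0.49, while Mdm2 and Mcl1 changed sign, to -0.07 and -0.26.

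**Figure D1:**
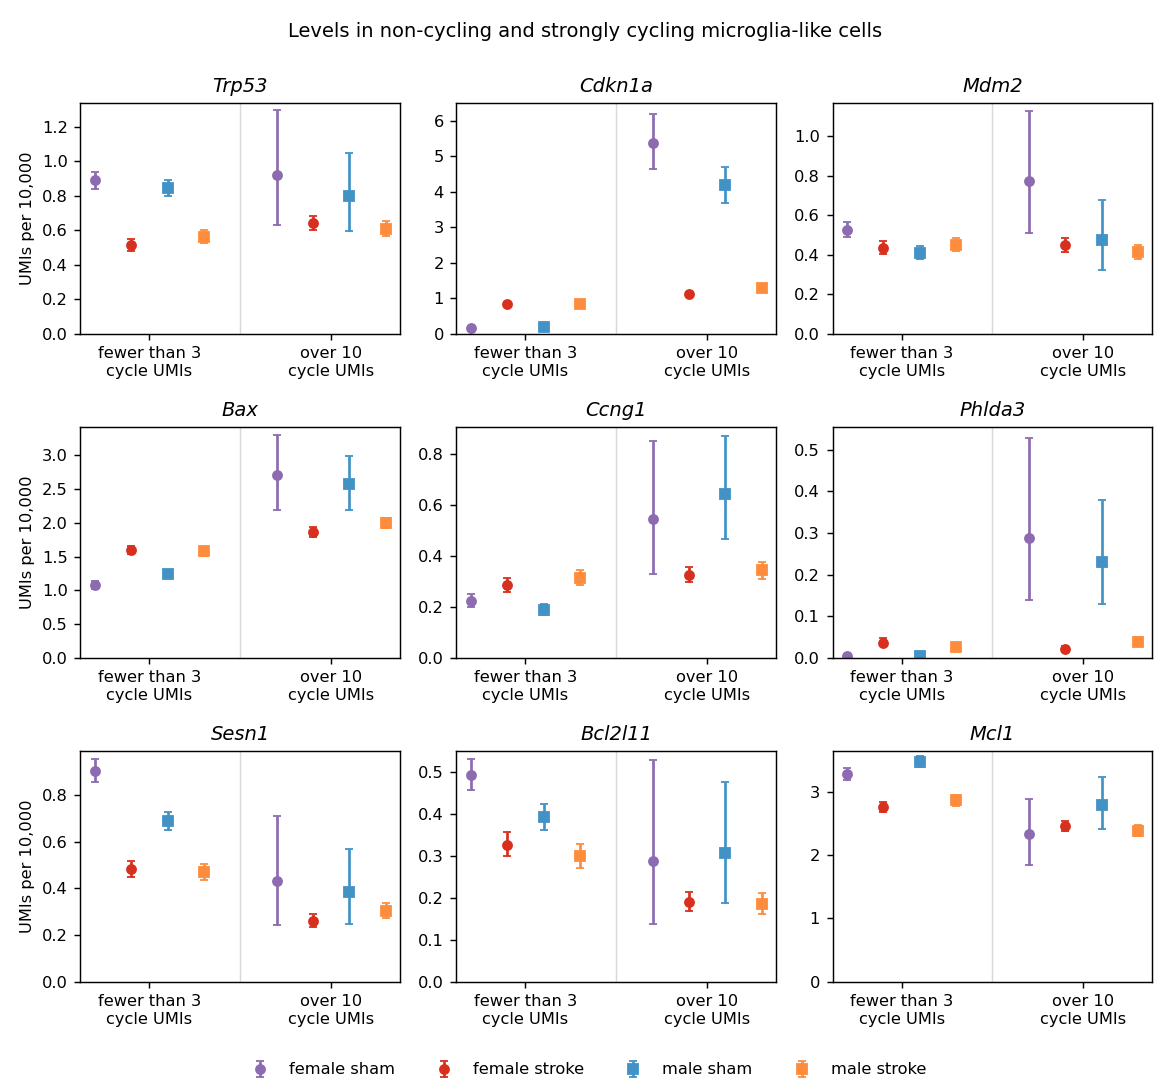
Levels of the 9 genes in microglia-like cells, as UMIs per 10,000 on a linear axis from 0, by pool, in non-cycling cells (fewer than 3 cell cycle UMIs) and strongly cycling cells (over 10). Points are the pools and bars are exact 95% Poisson intervals, which cover counting error only. Cdkn1a is at 0.841 and 0.847 in the non-cycling cells of the stroke pools, above the sham pools, but at 5.38 and 4.18 in the strongly cycling cells of the sham pools, above the stroke pools.

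Several other measures of these cells moved with surgery. The median mitochondrial share was 2.07% and 1.19% in sham and 4.98% and 4.60% in stroke cells. The 10 interferon-induced genes summed to 1.06 and 1.31 UMIs per 10,000 in sham and to 12.2 and 15.7 in stroke, the monocyte markers to 4.14 and 4.93 in sham and to 12.4 and 12.2 in stroke, and the microglia markers to 342 and 324 in sham and to 229 and 236 in stroke. The part of these in the changes was not tested, with the following measured exception. In cells with a mitochondrial share of at most 3%, the Cdkn1a change was 2.58 and the Bax change 0.61, both still called, while the Ccng1, Trp53 and Sesn1 calls were lost. In that subset 3 of the genes were called, among them Mdm2 at 0.56 (edgeR adjusted p = 0.022), and Phlda3 had too few counts to be tested.

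With 3 or more cell cycle UMIs, 6 of the 9 genes were again called. Cdkn1a, Bax and Ccng1 rose and Trp53, Sesn1 and Bcl2l11 fell, where 27.3% of 12852 genes were called higher and 25.5% lower (3513 and 3278 genes, or 2204 and 5553 with library totals). Cdkn1a was at 0.588 and 0.612 in sham and at 0.982 and 1.07 in stroke. Its log2 change of 1.09 ± 0.14 (edgeR adjusted p = 4.5e-13) was smaller than in non-cycling cells, and with a limit of 5 in place of 3 it was -0.22 (adjusted p = 0.257). The cycling classes were unlike: G2M genes summed to 7.82 and 10.4 UMIs per 10,000 in sham and to 46.6 and 41.9 in stroke. Strongly cycling cells made up 27 of 683 and 68 of 1100 sham cells and 749 of 1595 and 623 of 1451 stroke cells. Those cells held Cdkn1a at 5.38 and 4.18 in sham and at 1.12 and 1.30 in stroke. Their part in the changes was not tested. Bcl2l11 was at 0.518 and 0.404 in sham and at 0.216 and 0.215 in stroke, with no overlap and a log2 change of -0.76 ± 0.16 (edgeR adjusted p = 8.0e-06). Sesn1 was at 0.838 and 0.615 in sham and at 0.309 and 0.350 in stroke, a log2 change of -0.80 ± 0.15 (edgeR adjusted p = 2.0e-07). The Trp53 call (-0.35 ± 0.14, edgeR adjusted p = 0.0258) was lost without either stroke pool (adjusted p = 0.191 and 0.312) and with DESeq2 (adjusted p = 0.188), and the Ccng1 call (0.60 ± 0.16, edgeR adjusted p = 8.5e-04) without the male stroke pool (adjusted p = 0.0579).

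The direction of the Cdkn1a difference between surgeries turned over as cells carried more cell cycle UMIs. Female sham microglia held 0.132 UMIs per 10,000 with 0 cycle UMIs, 0.171 with 1 to 2, 0.172 with 3 to 5, 0.462 with 6 to 10 and 5.38 with over 10. Male sham microglia held 0.217, 0.185, 0.191, 0.463 and 4.18 in the same order. The level in sham thus differed little up to 5 cycle UMIs and was many times higher in the last class. Female stroke microglia held 0.700, 0.901, 0.777, 0.750 and 1.12, and male stroke microglia 0.996, 0.781, 0.752, 0.778 and 1.30. The stroke pools were above the sham pools in every class but the last, where they were below.

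**Figure D2:**
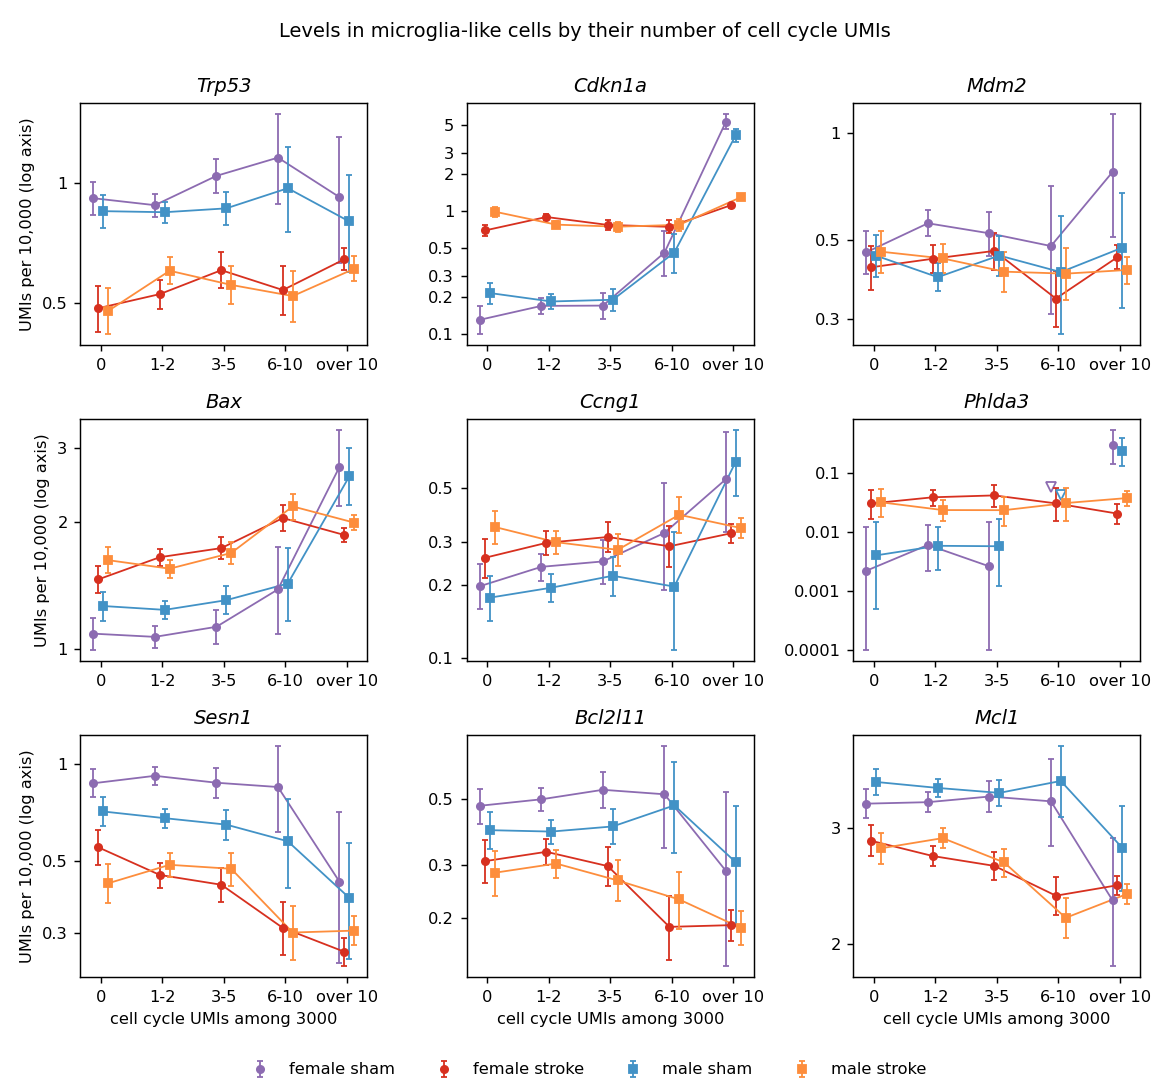
Levels of the 9 genes in microglia-like cells, as UMIs per 10,000 on a log axis, against the number of cell cycle UMIs among 3000 per cell, with 1 line per pool. Bars are exact 95% Poisson intervals, and open triangles mark the limit of 3 counts where no UMI was seen. Cdkn1a in sham runs from 0.132 and 0.217 to 5.38 and 4.18, while the stroke lines stay between 0.700 and 1.30.

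Within sham microglia, Cdkn1a, Phlda3, Ccng1 and Bax rose in strongly cycling over non-cycling cells, and Sesn1 and Mcl1 fell. This comparison was added after the data were seen, and in it 14.2% of 12134 genes were called higher and 11.3% lower. Cdkn1a was 33.9 times higher in females and 21.5 times in males, a log2 change of 4.69 ± 0.14 (edgeR adjusted p = 1.5e-223). Phlda3 was at 0.288 and 0.231 in the strongly cycling cells of the female and male sham pools, resting on 10 and 15 UMIs, against 0.0048 and 0.0053 in non-cycling cells. Its log2 change was 5.57 ± 0.69 (edgeR adjusted p = 1.4e-14). Only the strongly cycling sums took Phlda3 past the low-count filter, so the call rests on the class where it was high. For both genes the strongly cycling cells were the higher class in each pool. Phlda3 was carried by 6 of the 27 and 9 of the 68 cells, and without the single highest cell its levels were 0.177 and 0.172. Other measures moved with this comparison: 8 of the 10 interferon-induced genes rose (median log2 change 1.99), from sums of 1.06 and 1.31 to 9.57 and 6.01, the microglia markers went from 342 and 324 to 233 and 210, and the median depth from 6429 and 5411 to 10093 and 7977.5 UMIs. Their part in the changes was not tested.

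Ccng1 was at 0.546 and 0.646 in the strongly cycling sham cells against 0.225 and 0.189 in non-cycling ones (log2 change 1.53 ± 0.27, edgeR adjusted p = 3.5e-07). Bax was at 2.70 and 2.57 against 1.08 and 1.25 (log2 change 1.12 ± 0.14, edgeR adjusted p = 1.2e-14). Both thus differed far less than Cdkn1a. Sesn1 was at 0.431 and 0.384 against 0.903 and 0.688 (log2 change -0.98 ± 0.23, edgeR adjusted p = 2.7e-04), and Mcl1 at 2.33 and 2.80 against 3.28 and 3.47 (log2 change -0.43 ± 0.13, edgeR adjusted p = 0.0056). The Sesn1 and Mcl1 calls were lost with DESeq2, and the Mcl1 call without the pool term. Trp53 (-0.07 ± 0.19), Mdm2 (0.33 ± 0.23) and Bcl2l11 (-0.56 ± 0.28) did not pass the test. A difference in the p53 transcript itself was thus not detectable where one in its target Cdkn1a was.

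The strongly cycling sham cells were few, and the Cdkn1a signal was uneven among them. Of the 27 female sham cells, 44.4% had a Cdkn1a UMI among 3000 (95% exact binomial interval 25.5% to 64.7%), and of the 68 male sham cells 47.1% (34.8% to 59.6%). The stroke shares were 24.3% (21.3% to 27.5%) of 749 female cells and 26.2% (22.8% to 29.8%) of 623 male cells. Cells with 3 or more Cdkn1a UMIs among 3000 made up 14.8% and 20.6% of the sham cells and 3.07% and 4.17% of the stroke cells. Without thinning the shares with a UMI were 51.9% and 64.7% in sham and 61.1% and 61.0% in stroke, where the median depth was 16070 and 16342 UMIs per cell against 10093 and 7977.5 in sham. The single highest cell held 34 and 22 Cdkn1a UMIs in the sham pools, and without it the levels were 4.52 and 3.90. The cluster led by Top2a held 14 of the 27 and 53 of the 68 sham cells. Leaving out barcodes shared between libraries, 0 in female sham and 1 in male sham, gave 5.38 and 4.23.

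By phase, the Cdkn1a level of sham cells was higher in the measured classes with G2M genes than with S genes alone. Male sham cells with S genes alone held 0.550 UMIs per 10,000 and those with both S and G2M genes 3.97, over 179 and 51 cells. Female sham cells held 0.154 with S genes alone and 5.26 with both, over 140 and 18 cells. The 19 male sham cells with G2M genes alone held 5.05, and no level was taken for that class in the female sham pool. Across the same classes the stroke pools spanned 0.603 to 1.19 (female) and 0.736 to 1.29 (male).

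Between strongly cycling cells, stroke against sham, Cdkn1a and Phlda3 fell and no member rose, where 9.19% of 11369 genes were called higher and 5.30% lower (1045 and 603 genes, or 432 and 1659 with library totals). With library totals Ccng1 was also called, at -0.85. Cdkn1a was at 5.38 and 4.18 in sham and at 1.12 and 1.30 in stroke, so both sham pools lay above both stroke pools. It fell by 1.65 ± 0.18 on the log2 scale (edgeR adjusted p = 9.4e-17). It was called without any 1 of the 4 pools, at -1.48 to -1.80. Phlda3 was at 0.288 and 0.231 in sham and at 0.0203 and 0.0372 in stroke, a log2 change of -2.82 ± 0.54 (edgeR adjusted p = 7.4e-06), and its call was lost without either stroke pool. Ccng1, at 0.546 and 0.646 in sham and 0.326 and 0.343 in stroke, had a log2 change of -0.54 ± 0.26 and an edgeR adjusted p of 0.171. Bax, at 2.70 and 2.57 in sham and 1.86 and 1.99 in stroke, had a log2 change of -0.14 ± 0.19 (edgeR adjusted p = 0.715). In these classes the median mitochondrial share was 2.39% and 1.28% in sham and 5.08% and 4.89% in stroke, and the interferon-induced genes summed to 9.57 and 6.01 in sham and 11.2 and 12.3 in stroke. The classes did not cycle equally: S genes summed to 42.6 and 40.5 in sham and 25.9 and 26.0 in stroke, G2M genes to 93.1 and 97.96 in sham and 72.8 and 69.6 in stroke, and histone genes to 31.8 and 27.2 in sham and 17.3 and 16.8 in stroke. Microglia markers summed to 233 and 210 in sham and 144 and 149 in stroke, and monocyte markers to 4.80 and 7.49 in sham and 13.04 and 13.6 in stroke. Their part in the differences was not tested.

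The difference of the responses was tested with an interaction term, in which a negative value means a smaller rise or a larger fall after stroke in strongly cycling than in non-cycling cells. It was -4.11 ± 0.14 for Cdkn1a (edgeR adjusted p = 1.1e-24), -5.67 ± 0.66 for Phlda3 (3.6e-08), -1.36 ± 0.24 for Ccng1 (9.5e-05) and -0.79 ± 0.13 for Bax (2.1e-05). These are the 4 members that rose in non-cycling cells, although Phlda3 passed the low-count filter only through sums where it was high. In this comparison 3.34% of 13431 genes were called negative and 2.78% positive (449 and 373 genes, or 562 and 201 with library totals). In the same comparison 8 of the 10 interferon-induced genes (median -2.20, against 0.08 over all genes), 5 of 16 immediate early genes and 4 of 15 kinase inhibitors and G1 genes were also called negative, so a negative value was not particular to the 9 genes. With the limit of 3 cycle UMIs, Cdkn1a (-1.43), Phlda3 (-2.33), Bcl2l11 (-0.55) and Sesn1 (-0.35) were called, against 15.4% of 13514 genes called negative. Of these 4, DESeq2 lost the Bcl2l11 (adjusted p = 0.0934) and Sesn1 (adjusted p = 0.240) calls and gave Phlda3 no adjusted p. For Trp53, Mdm2 and Mcl1 neither limit gave a call. At both limits the cycling classes of sham and stroke did not cycle equally.

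**Figure D3:**
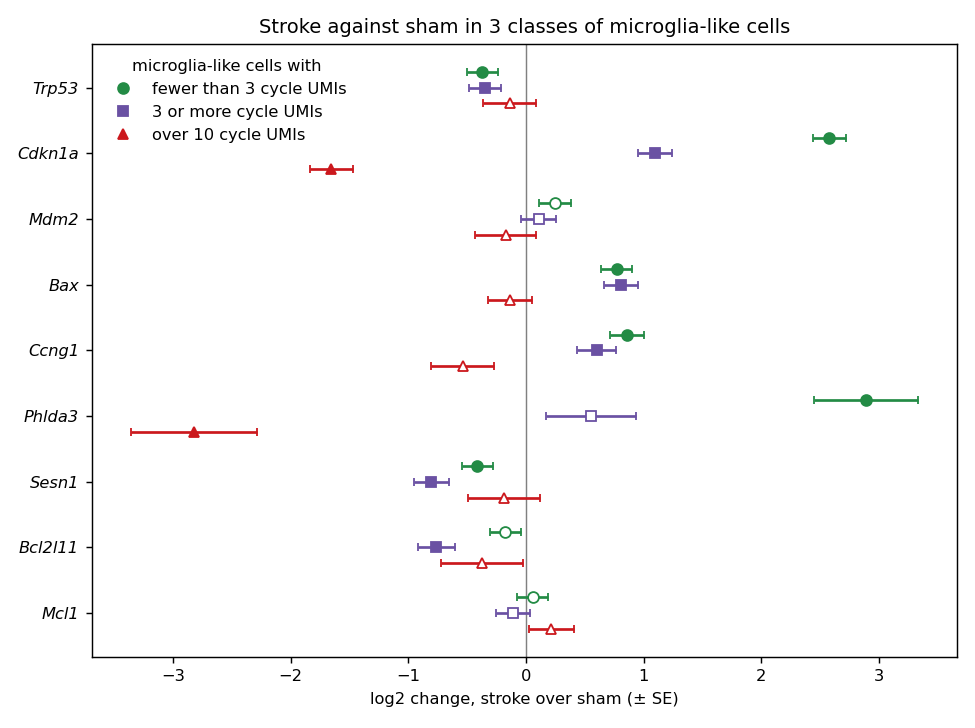
Log2 change of the 9 genes, stroke over sham, with its standard error, in microglia-like cells with fewer than 3, with 3 or more and with over 10 cell cycle UMIs. Filled symbols have an adjusted p under 0.05 by edgeR's quasi-likelihood test. Cdkn1a goes from 2.58 through 1.09 to -1.65, and Phlda3 from 2.89 through 0.55 to -2.82, while the symbols of Trp53 and Sesn1 are all at or below 0.

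Within stroke microglia the members were also compared between cycling and non-cycling cells. With 3 or more cycle UMIs, Cdkn1a (0.28 ± 0.05), Bax (0.27 ± 0.04) and Trp53 (0.16 ± 0.06) rose, and Bcl2l11 (-0.53 ± 0.07), Sesn1 (-0.52 ± 0.07) and Mcl1 (-0.19 ± 0.03) fell on the log2 scale. These 6 of 9 calls stand beside 57.1% of 12823 genes called in either direction by edgeR. In the strongly cycling cells 7 of the 9 were called, beside 63.6% of 12546 genes. There Cdkn1a was at 1.12 and 1.30 against 0.841 and 0.847 in non-cycling cells, 1.34 and 1.54 times as much, with a log2 change of 0.54 ± 0.06 (edgeR adjusted p = 2.3e-06). Bcl2l11 fell by 0.72 and Sesn1 by 0.73 on the log2 scale in that class, so the BIM gene and the sestrin were lower where Cdkn1a and Bax were higher.

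The wider pathway was followed in lists of genes that hold none of the 9. In non-cycling microglia, 9 of 27 further p53 targets rose after stroke and 3 fell, with a median log2 change of 0.33 against -0.04 over all genes. The counts in this class are to be read beside the 20.4% of all genes called higher and 18.3% called lower. The largest rises were of Ak1 (0.62), Dcxr (0.59) and the BH3-only gene Bbc3 (0.48), which encodes PUMA. The falls were of Btg2 (-0.66), an antiproliferative gene that is also induced as an immediate early gene, Rrm2b (-0.63), a ribonucleotide reductase subunit, and Ppm1d (-0.48), a phosphatase that returns p53 to rest. Among 19 regulators of p53, 8 rose and 2 fell, with a median of 0.24. Those that rose the most were Rpl5 (0.95) and Rpl11 (0.92), ribosomal proteins that can bind MDM2, and Tpt1 (0.83), and those that fell were the deubiquitinase Usp10 (-0.51) and the ubiquitin ligase Rchy1 (-0.39).

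Of 18 other proapoptotic genes, 4 rose and 4 fell, with a median of 0.02, which is close to the shares over all genes in both directions. Bak1, the partner of Bax in pore formation, rose by 0.87, Bnip3 by 0.68 and Bad by 0.59, whereas Bid (-0.67) and Fadd (-0.56) were among those that fell. Of 10 antiapoptotic genes, 2 rose and none fell. Of 14 cyclin-dependent kinase inhibitors and G1 genes, 5 rose and 3 fell. The inhibitors Cdkn1c (-1.18) and Cdkn1b (-0.55) fell with cyclin Ccnd1 (-0.62) in the class in which Cdkn1a rose, and Cdk4 rose by 0.41. Among 8 genes of the sestrin and stress list, Atf3 (0.48) rose, and Ddit4 (-1.15), like Sesn1 a brake on mTORC1, and Foxo1 (-0.40) fell.

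In sham microglia, 3 of 26 further p53 targets rose in strongly cycling over non-cycling cells and 2 fell. Both shares are smaller than the 14.2% and 11.3% over all genes. The genes of this comparison were picked out after their values were seen. Pidd1 rose by 2.72, Sesn2 by 1.79 and Tigar by 1.73, and Btg2 (-0.80) and Rrm2b (-1.35) fell. Of 18 regulators, 5 rose and 1 fell. Cdkn2a, the locus of p16 and of the MDM2 antagonist p19ARF, which these counts do not separate, was at 0.0212 and 0.0111 in non-cycling and at 0.518 and 0.584 in strongly cycling cells, and the damage kinases Chek2 (1.97) and Atm (1.20) rose with it. Of 15 kinase inhibitors and G1 genes, 7 rose, among them the cyclins Ccne2 (8.11) and Ccne1 (8.0), E2f1 (5.40) and the inhibitors Cdkn2c (4.35) and Cdkn2d (3.30), and Cdkn1c fell (-2.48). Of the further p53 targets, none rose and 3 of 25 fell in strongly cycling stroke against sham cells. In that comparison 9.19% of all 11369 genes were called higher and 5.30% lower.

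Between cycling and non-cycling stroke microglia, 7 of 28 further p53 targets rose and 11 fell, with a median of -0.04 against -0.01 over all genes. Over all 12823 genes 3844 rose and 3480 fell, so the share of the further targets that rose was smaller than that of all genes, and the list counts that follow stand beside the same background. Aen (0.50) and Ei24 (0.16) rose, and Btg2 (-0.81), Bbc3 (-0.62) and Dcxr (-0.56) fell. Of 19 regulators 8 rose, led by Chek2 (0.92), Atm (0.66) and Usp10 (0.48), and 3 fell, namely Kat5 (-0.37), Rchy1 (-0.34) and Trp53bp2 (-0.25). Of 18 proapoptotic genes 6 rose, among them Cycs (1.12) and Bak1 (0.70), and 6 fell, led by Bmf (-1.13), Bnip3l (-0.45) and Bnip3 (-0.30). Of 10 antiapoptotic genes 3 rose, among them Bcl2 (0.59), and 4 fell, led by Birc3 (-0.58), Cflar (-0.47) and Birc2 (-0.40). Bcl2a1a (0.18) also rose, but it shares reads with near-identical copies and its value is uncertain. Of 15 kinase inhibitors and G1 genes 9 rose and 1 fell, with Ccne2 (5.55), Ccne1 (4.23) and Cdkn2c (2.84) in front. Of 9 stress genes 3 rose and 4 fell, among them Atf3 (0.31), Atf4 (0.15), Foxo3 (-0.51) and Ddit3 (-0.39).

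Macrophage-like cells were named from marker genes, and whether they had infiltrated the brain was not measured. They were scarce in sham, with 13 and 44 cells of at least 3000 UMIs against 1038 and 554 in stroke. In stroke most belonged to a cluster led by Arg1 and Gpnmb (993 and 544 cells before the depth limit), whereas 8 female and 25 male sham cells lay in a cluster led by Ear2, so unlike cells were set side by side. Bax, Bcl2l11 and Mdm2 rose after stroke and none of the 9 fell, where 6.46% of 10210 genes were called higher and 6.44% lower (660 and 658 genes, or 519 and 870 with library totals). Bax was at 1.91 and 1.75 in sham and at 3.42 and 3.67 in stroke, a log2 change of 1.14 ± 0.29 (edgeR adjusted p = 0.0015). Bcl2l11 was at 0.274 and 0.418 in sham and 0.918 and 0.926 in stroke, on 4 UMIs in the female sham pool, a log2 change of 1.48 ± 0.38 (edgeR adjusted p = 0.0013). Mdm2 was at 0.205 and 0.355 in sham and 0.574 and 0.680 in stroke, on 3 UMIs in the female sham pool, a log2 change of 1.24 ± 0.42 (edgeR adjusted p = 0.029). In all 3 the stroke pools lay above the sham pools, and none of the calls stood without either stroke pool. The Mdm2 and Bcl2l11 calls were also lost with DESeq2, and the Mdm2 call with library totals.

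The other members gave no call in macrophages. Cdkn1a was at 0.821 and 0.606 in sham and 0.926 and 0.819 in stroke, without a call (log2 change 0.50 ± 0.34, edgeR adjusted p = 0.403). Trp53 was at 0.547 and 0.668 in sham and 0.367 and 0.361 in stroke (edgeR adjusted p = 0.378), and Mcl1 at 6.63 and 5.72 in sham and 5.22 and 4.73 in stroke (edgeR adjusted p = 0.871). Ccng1 was at 0.957 and 0.334 in sham, on 14 and 16 UMIs, and at 0.320 and 0.313 in stroke (log2 change -0.60 ± 0.42, edgeR adjusted p = 0.431), so the female sham pool alone stood apart. Sesn1 was at 0.0684 and 0.146 in sham, on 1 and 7 UMIs, and at 0.223 and 0.294 in stroke (log2 change 1.30 ± 0.63, edgeR adjusted p = 0.184). Phlda3 gave 0 and 4 UMIs in sham and was at 0.0218 and 0.0367 in stroke (edgeR adjusted p = 0.817). Whether the responses of macrophages and microglia differ was not tested.

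Between cycling and non-cycling stroke macrophages, none of the 9 genes was called by edgeR, where 0.911% of 10317 genes were called higher and 0.155% lower. At an unadjusted p under 0.05 there were 2, Phlda3 (1.04 ± 0.45) and Bcl2l11 (-0.20 ± 0.09), and DESeq2 called none. Cdkn1a was at 0.906 and 0.779 in non-cycling and at 0.987 and 0.960 in cycling macrophages, with a log2 change of 0.16 ± 0.09. Macrophages with over 10 cycle UMIs were too few to be compared, at 6 and 3 in the stroke pools.

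Set beside microglia of the same stroke pools, macrophages held more Bax, Bcl2l11 and Mcl1. Bax was 1.95 and 2.05 times as high in females and males, Bcl2l11 3.55 and 3.71 times, and Mcl1 2.01 and 1.81 times, whereas Trp53 was 0.635 and 0.630 times as high. Cdkn1a differed little, at 0.999 and 0.840 times. The classes come from clusters, so these ratios are a description with no test. Bax and Bcl2l11, which promote death, and Mcl1, which opposes it, were thus all higher in the macrophage-like class. The list of other antiapoptotic genes did not share this, with sums of 4.81 and 4.81 UMIs per 10,000 in macrophages against 6.28 and 6.41 in microglia, and the other proapoptotic genes summed to 8.46 and 8.36 against 7.87 and 7.76.

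**Figure D4:**
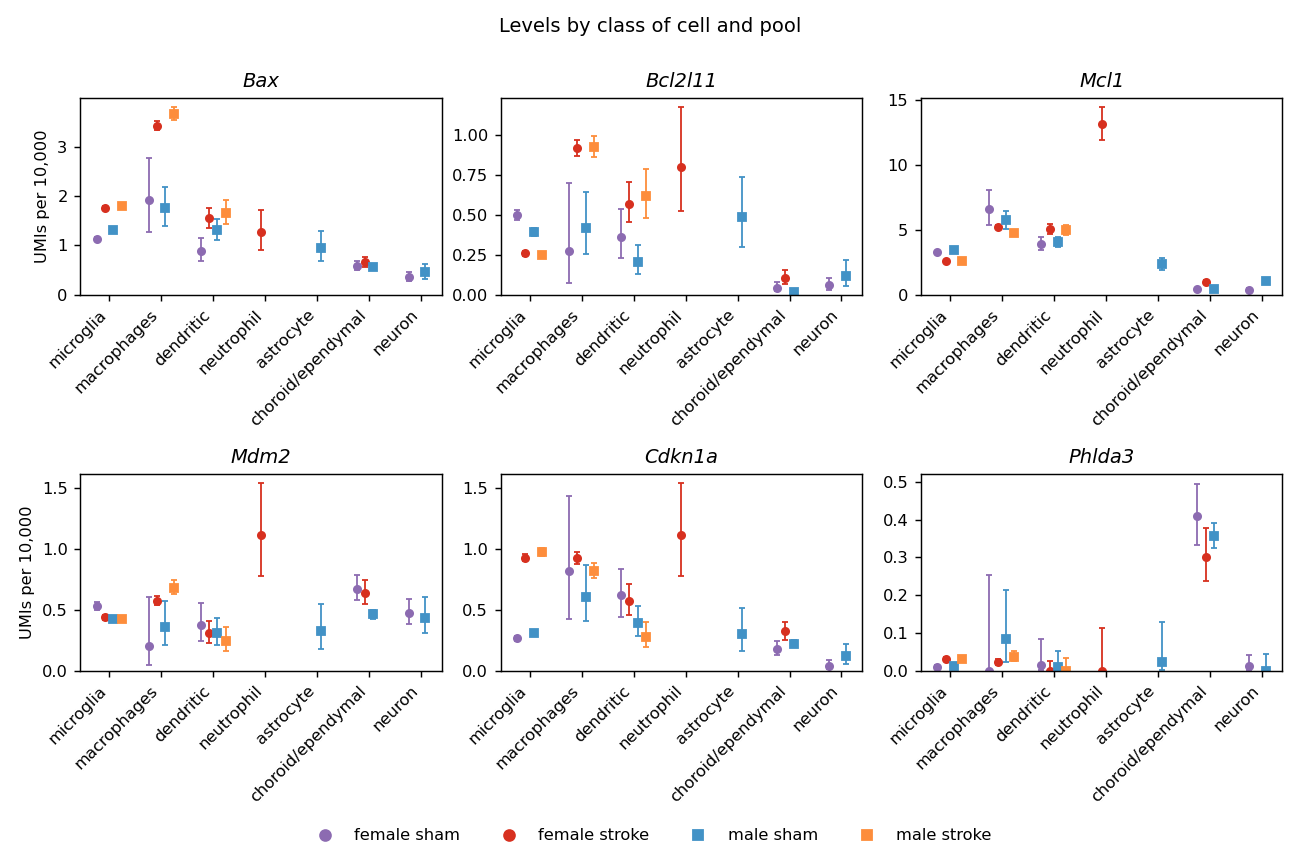
Levels of Bax, Bcl2l11, Mcl1, Mdm2, Cdkn1a and Phlda3, as UMIs per 10,000 on a linear axis from 0, in 7 classes of cells by pool, for sums of the classes with at least 50 cells and for macrophages in all pools. Bars are exact 95% Poisson intervals of the counts. Bax is highest in stroke macrophages (3.42 and 3.67), Mcl1 in neutrophils (13.1) and Phlda3 in choroid and ependymal cells (0.301 to 0.408).

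The level of Cdkn1a varied among the clusters of microglia, read where a pool had at least 50 cells. The Top2a cluster held 5.01 UMIs per 10,000 in male sham and 1.19 and 1.34 in female and male stroke, and the female sham cells of it were too few for a level. The cluster led by Ccl4 and Spp1 held 1.14 in male sham and 1.23 and 1.05 in female and male stroke. In males that cluster thus had nearly the same level after either operation. The interferon cluster led by Ifit3 held 0.404 and 0.249 in sham and 0.915 and 0.993 in stroke, and the Cst7 cluster 0.546 and 0.477 in sham and 0.614 and 0.713 in stroke. The cluster led by Fos and Dusp1, immediate early genes, held 0.102 in male sham and 0.920 in male stroke, the latter in 66 cells. In the cluster led by Upk1b the sham pools held 0.0915 and 0.126.

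Over 21 sums of cells by class and pool, the genes whose levels followed Cdkn1a most closely were Mapkapk2 (Pearson r 0.859), Rab5if (0.846) and Cfl1 (0.843), among 2722 genes compared on the scale log2(UMIs per 10,000 + 0.1). For Trp53 they were Pip4k2a (0.962), Crlf3 (0.956) and Btg2 (0.955). The sums share pools, and 8 of them are microglia, so the values describe these sums only.

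The genes lie on 7 chromosomes of GRCm38 in the GENCODE M21 annotation. UMIs of the 3′ assay are counted per gene, and whether intronic reads were included is not known. Trp53 is at chr11:69580359-69591873, Mdm2 at chr10:117688875-117710758, Cdkn1a at chr17:29090976-29100727, Ccng1 at chr11:40748552-40755311 and Phlda3 at chr1:135766119-135769136. Sesn1 is at chr10:41809935-41908424, Bax at chr7:45461697-45466898, Bcl2l11 at chr2:128126038-128162547 and Mcl1 at chr3:95658788-95663176. Annotated genes overlap Cdkn1a on the opposite strand (AC167363.2) and Bax (Gm45808) and Sesn1 (9930024M15Rik) on the same strand, so reads of those pairs may not be told apart.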

How the data were processed

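Single-cell RNA was measured in 4 pools. The deposited matrices hold UMI counts per gene and barcode. Cell Ranger 7.1.0 and mm10 are listed in the submitters' processing notes, and per the file headers the version is 6.1.2. The sources used here do not say whether intronic reads were counted, or with strand. Barcodes with at least 500 genes, 1000 UMIs and at most 10% mitochondrial UMIs were kept, 18045 in all. Scrublet marked 8 of them (0.0443%), too few to count as a working doublet call, and 18037 stayed. Clusters (scanpy 1.11.5, Leiden resolution 0.8) were built without the 9 genes and named from markers. Raw counts were summed per pool and class and tested with edgeR 4.0.16 (quasi-likelihood, TMM, filterByExpr, Benjamini-Hochberg, 0.05, two-sided), with sex or pool as a term and 1 residual degree of freedom, 2 in the interaction, so the spread was estimated largely across genes. The prior degrees of freedom were infinite for stroke against sham in non-cycling and cycling microglia, for both macrophage tests and for the sham microglia test. There the spread came from a trend shared by the genes. The adjusted p-values thus do not measure how a gene varies between pools of one kind. Only the edgeR test of non-cycling microglia was run on simulated counts. They were drawn with the spread that edgeR had fitted and with no sex effect, so the other steps were not checked. Alternatives were DESeq2 1.42.0, library totals, no filter, other limits for cycling, stricter filters, thinned counts and leaving out each pool. Fits that left out a pool also had no sex term, so a call lost there may reflect the changed model as well as the missing pool. The 9 genes, the lists and the tests were chosen with earlier results of these data known. All 9 genes are named. Of each list, up to 3 genes with the largest change each way past the threshold are named, among those with at least 0.2 UMIs per 10,000 in a group; some genes this rule names are not reported here. Exact 95% Poisson and binomial intervals cover counting error only.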

Additional observations from a re-analysis of the deposited data

Results flagged for a closer look

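The response to stroke differed between cycling and non-cycling microglia for several of the 9 genes, by the interaction term of edgeR's quasi-likelihood test. With 3 or more cell cycle UMIs the difference on the log2 scale was -1.43 for Cdkn1a, -2.33 for Phlda3, -0.55 for Bcl2l11 and -0.35 for Sesn1. Of all 13514 genes, 15.4% were called negative and 18.5% positive there. DESeq2 lost the Bcl2l11 and Sesn1 calls and gave Phlda3 no adjusted p. With over 10 the difference was -4.11 for Cdkn1a, -5.67 for Phlda3, -1.36 for Ccng1 and -0.79 for Bax. Of all 13431 genes, 3.34% were called negative and 2.78% positive at that limit. Phlda3 passed the low-count filter only through sums where it was high, so its values are no independent evidence of a difference. At both limits the cycling classes of sham and stroke did not cycle equally.

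For 2 genes the pools moved in opposite directions in the 2 sexes, and the difference between the sexes was not tested because each sex has 1 pool per operation. In non-cycling microglia stroke minus sham was -0.092 UMIs per 10,000 for Mdm2 in females and 0.040 in males. In strongly cycling microglia it was 0.126 for Mcl1 in females and -0.416 in males. The female sham level of Mcl1 there was 2.33, with an exact Poisson interval of 1.85 to 2.89. That interval holds the female stroke level of 2.45, so the female rise was within counting error. The male stroke level of 2.38 lay just below the male sham interval of 2.41 to 3.23. How common opposite directions were among all genes was not counted.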

How the results depend on the processing

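Of 695 values of single genes under alternatives, 586 kept their direction and side of the threshold, 53 lost the call, 18 gained one and 38 changed sign. Of those that changed sign, 9 belonged to genes that had been called. Counts of members called that moved by over 1.5 times were as follows (DESeq2 gave Phlda3 no adjusted p in the interaction and in strongly cycling microglia): 3 in place of 6 in non-cycling microglia with a mitochondrial share of at most 3%, 2 in place of 6 in cycling microglia with over 10 cycle UMIs or with G2M genes alone, 1 in place of 4 in the interaction with DESeq2, 1 in place of 3 in macrophages with DESeq2 and 0 to 3 without 1 pool, and 1 in place of 2 in strongly cycling microglia with DESeq2 and 1 to 2 without 1 pool.

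Changes of sign in non-cycling microglia were Mdm2 (-0.072) and Mcl1 (-0.26) with library totals, Mcl1 over all microglia (-0.066) and Mcl1 without 1 pool (-0.016 to 0.162). In cycling microglia they were Mdm2 with library totals (-0.22), Cdkn1a (-0.22), Mdm2 (-0.0014) and Phlda3 (-1.06) at 5 or more cycle UMIs, Cdkn1a (-1.65), Mdm2 (-0.17), Bax (-0.14), Ccng1 (-0.54), Phlda3 (-2.82) and Mcl1 (0.22) at over 10, and Cdkn1a (-1.69), Mdm2 (-0.20), Bax (-0.040), Ccng1 (-0.46), Phlda3 (-2.74) and Mcl1 (0.15) by G2M genes alone. In the interaction they were Bax at 5 or more (-0.21), Bax (-0.79), Sesn1 (0.25) and Mcl1 (0.24) at over 10, and Bax (-0.72), Sesn1 (0.42) and Mcl1 (0.21) by G2M genes. Elsewhere they were Phlda3 in stroke microglia at 2 or more (0.23), with stricter filters (0.52) and with thinned counts (0.37), Mcl1 in macrophages with no filter (0.0061), Mcl1 (0.018, library totals) and Sesn1 (-0.043, 2 or more) in stroke macrophages, Trp53 in sham microglia by G2M genes (0.073) and Mcl1 with library totals (-0.094) in strongly cycling microglia. Without 1 pool, Ccng1 in macrophages ran from -1.32 to 0.117, Mdm2 in strongly cycling microglia from -0.48 to 0.164, and Phlda3 in macrophages from -1.38 to 7.46, the last against a sham pool with 0 UMIs and so no measure of size. The cause of each was not tested beyond the change of class or scaling itself.

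Over all genes, DESeq2 called 2246 in place of 5009 in non-cycling and 3898 in place of 6791 in cycling microglia, 1619 in place of 4570 in the interaction, 3710 in place of 7324 in stroke microglia, 618 in place of 1318 in macrophages, 8 in place of 110 in stroke macrophages and 1365 in place of 3098 in sham microglia. Without the female or male stroke pool, 2324 or 2360 were called in non-cycling, 4080 or 4300 in cycling and 104 or 102 in place of 1648 in strongly cycling microglia. Other settings gave 2810 (stricter filters), 2688 (thinned counts) and 1148 (mitochondrial share at most 3%) in non-cycling microglia, 4506 (5 or more cycle UMIs) in cycling microglia and 2700 in its interaction, 4056 (thinned) in stroke microglia, 2335, 557 and 547 in macrophages without the female sham, female stroke and male stroke pool, and 19, 302 and 15 in stroke macrophages at 2 or more, at 5 or more and without the pool term. Among strongly cycling cells DESeq2 called 529 in place of 1648, and 290 in place of 822 in their interaction. No alternative was run for macrophages without the Ear2 cluster. None was run for stroke macrophages with over 10 cycle UMIs or by G2M genes alone. In each of these the smallest pool held under 10 cells.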

Other observations

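Outside microglia and macrophages the 9 genes had their own pattern by class, described without a test because the classes come from clusters. Mcl1 was at 13.1 UMIs per 10,000 in the neutrophils of the female stroke pool, at 5.03 and 4.97 in the dendritic cells of the stroke pools, and at 0.428, 1.004 and 0.419 in the choroid and ependymal cells of the female sham, female stroke and male sham pools. Phlda3, near 0 in most cells, was at 0.408, 0.301 and 0.356 in those choroid and ependymal cells, above its level in strongly cycling sham microglia. The choroid markers summed to 4.00 and 14.8 UMIs per 10,000 in those strongly cycling cells and to 5.57 and 16.8 in non-cycling sham microglia, and their part in the Phlda3 level was not tested. Neutrophils held 1.11 of Cdkn1a and 1.11 of Mdm2, and neurons of the sham pools 0.348 and 0.458 of Bax.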
